A study of Homo sapiens with 4 samples.

Results

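The genes described here were 10 genes of the Wnt pathway, chosen by name: CTNNB1, which encodes beta-catenin, and AXIN2, LGR5, NKD1, ZNRF3, RNF43, TCF7, LEF1, SP5 and NOTUM, which are widely used as readouts of beta-catenin activity. All 10 were found, out of 58302 genes listed in each library. The measurements were mRNA-seq of HepG2 cells, a human hepatocellular carcinoma line known to carry an activating deletion in CTNNB1, although its genotype is labelled WT. Cells received 1 mM melatonin, or DMSO as the control, and were collected after 24 h and after 48 h, which gave 4 libraries. Each condition was 1 library from 1 cell line, so no comparison has a replicate check and no p-value is given.

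Beta-catenin is made continuously and, without a Wnt signal, is marked for breakdown by a complex built on AXIN and APC proteins. When Wnt ligands bind Frizzled and LRP receptors, or when beta-catenin loses the sites by which it is marked, it accumulates, enters the nucleus and activates genes together with TCF and LEF proteins. Several of these genes encode proteins that dampen the pathway again, and in the liver beta-catenin activity is known for setting the gene program of hepatocytes around the central vein.

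Levels are given in FPKM (sequenced fragments divided by library size and by gene length), which allows a comparison between genes. The reads on genes, recovered from the FPKM and the gene lengths, ranged from 21616676 to 23086025 per library, and mitochondrial genes took 19.96% of the reads in DMSO 24 h, 16.6% in melatonin 24 h, 9.77% in DMSO 48 h and 11.9% in melatonin 48 h. All 13 hepatocyte markers reached 1 FPKM, with summed levels from 8992 to 10761 FPKM. Of the fibroblast and stellate markers, 3 of 9 were listed at 0 throughout and the summed level was 4.07 to 7.71 FPKM. Of the 5 endothelial markers, 2 were listed at 0 and the sum was at most 1.18 FPKM. The immune cell list summed to 731 to 1069 FPKM, nearly all of it LYZ, with CD3E listed at 0 in all libraries. The 5 cholangiocyte and progenitor markers summed to 120 FPKM in DMSO and 75.1 in melatonin at 24 h, and to 103 and 57.8 at 48 h. This list was thus lower with melatonin at both times, as were AXIN2, LGR5, NKD1, ZNRF3 and RNF43 in FPKM, while NOTUM was higher. Of the 13 hepatocyte markers, 9 were lower and 4 higher with melatonin at each time. Among all genes with 1 FPKM or more in either library, 6316 of 13582 were lower at 24 h and 7252 of 13805 at 48 h. The part of the cell type markers and of the mitochondrial share in the results was not tested, and in bulk RNA fewer cells with a transcript and less of it per cell cannot be told apart.

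RefSeq (GRCh38.p14) gave promoter windows for 5 of the 10 genes: CTNNB1, RNF43, TCF7, LEF1 and SP5. AXIN2, LGR5, NKD1, ZNRF3 and NOTUM had no entry. SP5 and LEF1 are shown because both encode nuclear factors of the pathway and they lay near opposite ends of the expression range. Each line holds the 250 bases before a transcription start annotated in RefSeq, 5′ to 3′ on the coding strand, and capitals mark TCAAAG, the core letters of the motif that TCF and LEF proteins bind, on either strand.
SP5, chr2:170715087-170715336, plus strand: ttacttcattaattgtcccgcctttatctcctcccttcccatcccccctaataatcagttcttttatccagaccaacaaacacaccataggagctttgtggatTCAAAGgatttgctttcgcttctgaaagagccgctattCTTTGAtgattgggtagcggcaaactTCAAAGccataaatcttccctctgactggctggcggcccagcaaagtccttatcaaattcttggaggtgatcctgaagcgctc
LEF1, chr4:108166302-108166551, minus strand: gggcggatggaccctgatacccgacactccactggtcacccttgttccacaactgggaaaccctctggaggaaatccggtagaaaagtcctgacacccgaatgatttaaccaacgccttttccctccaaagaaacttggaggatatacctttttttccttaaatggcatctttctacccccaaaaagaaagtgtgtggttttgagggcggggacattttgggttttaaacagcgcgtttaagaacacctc
The SP5 window held TCAAAG 3 times, starting 147, 109 and 83 bases before that start, once as ATCAAAG and 2 times as TTCAAAG. The windows of LEF1, CTNNB1, RNF43 and TCF7 held it 0 times. These starts differ from the gene boundaries in the files: the windows of LEF1, CTNNB1 and TCF7 lie inside the genes as the files give them, those of RNF43 lie inside or across the boundary, and that of SP5 lies before it. Of all 35116 windows of this length, 11.2% held TCAAAG at least once and 0.0655% held it 3 or more times. A match is only a match of letters and was not measured as a binding site.

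NOTUM (chromosome 17, 81952507 to 81961840, minus strand, hg38 as for all positions of genes below), a secreted enzyme that inactivates Wnt ligands by removing their lipid, was the highest of the 10 genes in every library, at 261 FPKM in DMSO and 389.8 in melatonin at 24 h, and 354 and 575 at 48 h. SP5 (chromosome 2, 170715351 to 170718078, plus strand), a transcription factor that acts on Wnt target promoters, was next in every library, at 146 FPKM in DMSO and 150.3 in melatonin at 24 h, and 157 and 118 at 48 h. CTNNB1 (chromosome 3, 41194837 to 41260096, plus strand) was at 100.4 FPKM in DMSO and 87.6 in melatonin at 24 h, and 61.1 and 63.7 at 48 h. It followed SP5 in every library except DMSO 48 h, where NKD1 stood between them. NKD1, an inhibitor that binds Dishevelled, was at 43.3 FPKM in DMSO and 28.3 in melatonin at 24 h, and 70.9 and 31.7 at 48 h. On the deposited gene lengths NOTUM and SP5 thus stood above CTNNB1 in all 4 libraries, and the other members below it apart from NKD1 in DMSO 48 h.

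**Figure D1:**
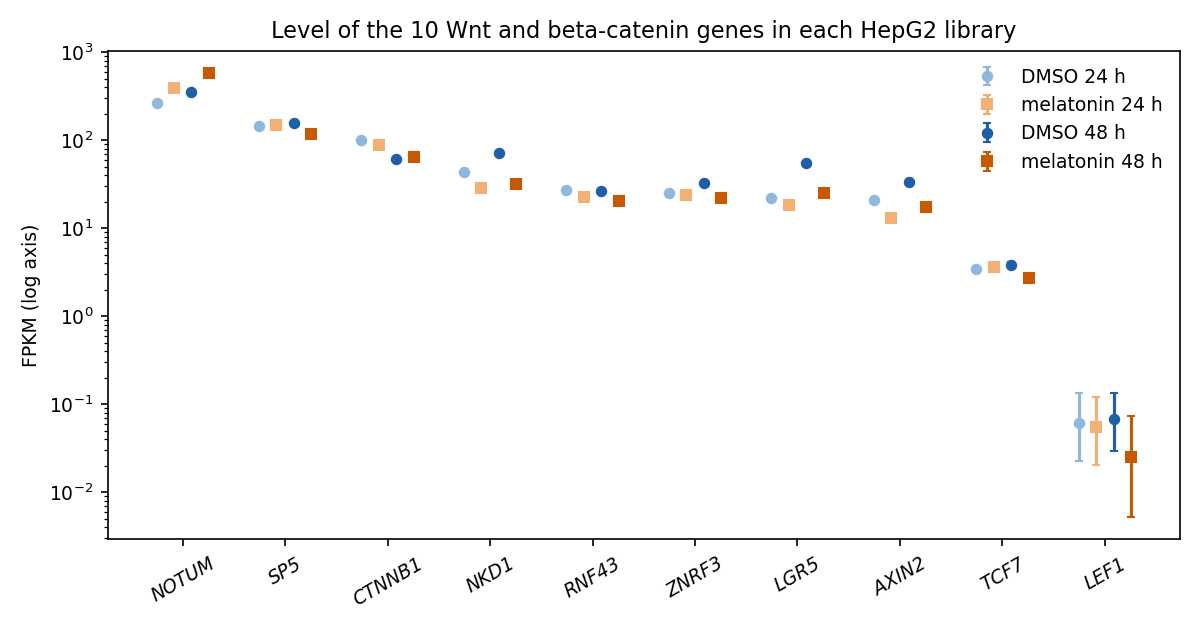
Level of each of the 10 genes in the 4 HepG2 libraries, in FPKM on a log axis, with circles for DMSO, squares for melatonin, and bars for the exact 95% Poisson counting interval. NOTUM ran from 261 to 575 FPKM, while LEF1 stayed at or below 0.06805 FPKM.

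The middle group held RNF43, ZNRF3, LGR5 and AXIN2. RNF43 and ZNRF3 are related membrane ubiquitin ligases that remove Frizzled receptors, and RNF43 was at 26.9 FPKM in DMSO and 22.6 in melatonin at 24 h, and 26.6 and 20.1 at 48 h. ZNRF3 (chromosome 22, 28883592 to 29057487, plus strand) was at 25.3 FPKM in DMSO and 23.8 in melatonin at 24 h, and 32.5 and 22.1 at 48 h, and the counting intervals of this pair overlapped at 24 h in both treatments but not at 48 h. LGR5 (chromosome 12, 71439770 to 71586310, plus strand), a receptor for R-spondins and a marker of Wnt-dependent stem cells, was at 22.2 FPKM in DMSO and 18.5 in melatonin at 24 h, and 55.5 and 25.1 at 48 h. AXIN2 (chromosome 17, 65528563 to 65561647, minus strand), a scaffold of the destruction complex, was at 20.95 FPKM in DMSO and 13.03 in melatonin at 24 h, and 33.2 and 17.2 at 48 h. LGR5 could not be told from AXIN2 in DMSO 24 h, nor AXIN2 from ZNRF3 in DMSO 48 h, by these intervals. All other neighbours in the order of levels had counting intervals that did not overlap.

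TCF7 and LEF1, which encode partners of beta-catenin on DNA, were the lowest of the 10 genes. TCF7 was at 3.48 FPKM in DMSO and 3.58 in melatonin at 24 h, and 3.84 and 2.71 at 48 h. LEF1 (chromosome 4, 108047545 to 108168956, minus strand) had only 6, 6, 8 and 3 reads in the same order of libraries, or 0.06097, 0.0552, 0.06805 and 0.0252 FPKM. It was the 1 member that failed the minimum of 1 FPKM in either library, and it entered no count of genes below. At this depth no difference in LEF1 was detectable, with a melatonin over DMSO ratio at 48 h of 0.3704 (0.0633 to 1.54).

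The order depended partly on gene length. The deposited length of TCF7 was 10063 bp against 3288 bp for its MANE Select transcript, the representative transcript in GENCODE 44, a factor of 3.06, and the factor was 1.81 for CTNNB1 and 1.66 for RNF43. With the transcript lengths CTNNB1 stood above SP5 at 24 h, at 181 against 147 FPKM in DMSO and 158 against 151 in melatonin, and remained below it at 48 h. RNF43 stood above NKD1 in DMSO 24 h (44.6 against 44.2 FPKM), melatonin 24 h (37.6 against 28.9) and melatonin 48 h (33.4 against 32.4). In DMSO 48 h CTNNB1 was then above NKD1, at 110.3 against 72.5 FPKM. NOTUM stayed the highest and TCF7 and LEF1 the lowest in all 4 libraries with either length. The deposited length of a gene is the same in every library and cancels in its ratio between libraries.

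Some members share their place in the genome with another gene, and how the counting treated strand is not stated. TCF7 (chromosome 5, 134114711 to 134151865, plus strand) overlaps SKP1 on the other strand, which had 1051 to 1358 reads against 643, 731, 847 and 606 for TCF7. RNF43 (chromosome 17, 58352500 to 58417595, minus strand) overlaps the start of SUPT4H1 on the same strand. SUPT4H1 had 858 to 1295 reads against 3704, 3446, 4378 and 3354 for RNF43. The values of TCF7 and RNF43 are therefore less certain than the others. NKD1 (chromosome 16, 50548330 to 50649249, plus strand) overlaps small non-coding genes, the most abundant with 164 to 285 reads against 13841, 10001, 27075 and 12261 for NKD1. SP5 and NOTUM overlap no other listed gene.

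The first question was what melatonin did to these genes at 24 h. AXIN2 and NKD1 were the members lowest in melatonin relative to DMSO, at 0.622 (0.5802 to 0.666) and 0.654 (0.637 to 0.671) of the DMSO level. The range in parentheses is the exact 95% interval of a ratio from the recovered reads, and it covers counting error only. NOTUM lay on the other side, at 1.49 (1.46 to 1.52). The log2 differences, taken on FPKM + 1, were -0.65 for AXIN2, -0.60 for NKD1 and 0.57 for NOTUM. None of the 9 members tested reached a 2-fold difference, against 1.42% of all 13582 genes tested that were at least 2-fold higher and 2.93% that were at least 2-fold lower.

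Smaller differences were seen in the rest. RNF43 was at 0.842 (0.804 to 0.882), LGR5 at 0.834 (0.784 to 0.887) and CTNNB1 itself at 0.873 (0.851 to 0.895) of DMSO. ZNRF3 was at 0.938 (0.893 to 0.984), and its log2 difference of -0.09 turned to 0.08 when the libraries were rescaled to TPM. For SP5 and TCF7 the ratios were 1.03 (0.993 to 1.07) and 1.03 (0.924 to 1.15), intervals that include no difference. Counted by the interval, 6 members were lower and 1, NOTUM, was higher, while 22.4% of all genes tested had an interval wholly below 1 and 28.2% wholly above. The median log2 difference was -0.19 over the 9 members and 0.02 over all genes tested.

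The same comparison at 48 h gave larger differences. NKD1 and LGR5 fell past 2-fold, NKD1 from 70.9 to 31.7 FPKM and LGR5 from 55.5 to 25.1 FPKM. Their ratios were 0.447 (0.438 to 0.457) and 0.452 (0.433 to 0.472), with log2 differences of -1.14 and -1.11. AXIN2 lay just inside the threshold at 0.518 (0.491 to 0.547), a log2 difference of -0.91. Thus 2 of 9 members tested were at least 2-fold lower and 0 at least 2-fold higher, where 3.32% and 2.39% of 13805 genes were. Under 4 other scalings of the libraries and a pseudocount of 0.1 the log2 difference stayed between -1.21 and -1.07 for NKD1 and between -1.19 and -1.05 for LGR5.

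**Figure D2:**
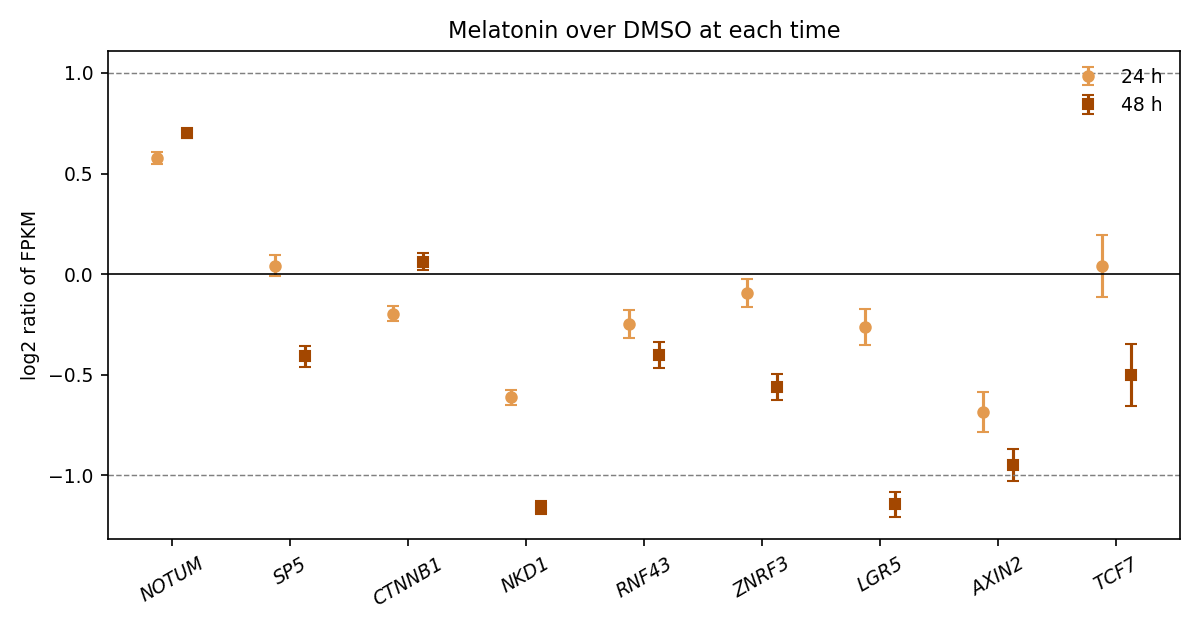
Melatonin over DMSO as the log2 ratio of FPKM for the 9 members above 1 FPKM, with circles for 24 h, squares for 48 h, bars for the exact 95% counting interval, and dashed lines at 2-fold. NKD1 and LGR5 lie below the lower dashed line at 48 h, and NOTUM lies above 0 at both times.

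The ubiquitin ligases and the transcription factors were also lower in melatonin at 48 h, by less than 2-fold. ZNRF3 was at 0.678 (0.649 to 0.708), RNF43 at 0.757 (0.723 to 0.792), SP5 at 0.753 (0.727 to 0.781) and TCF7 at 0.707 (0.636 to 0.785) of DMSO. CTNNB1 differed little, at 1.04 (1.01 to 1.07). NOTUM was again higher, at 1.62 (1.598 to 1.65), and its level in melatonin 48 h was the highest of the 4 libraries. By the interval 7 members were lower, against 33.1% of all genes tested, and 2 were higher, CTNNB1 and NOTUM, against 29.1%. The median log2 difference was -0.41 over the members and -0.02 over all genes tested.

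Because well-counted genes have narrow intervals, the members were also placed among genes with at least 500 reads in either library. Of 6805 such genes at 24 h, AXIN2 lay at percentile 1.66 of the log2 difference, NKD1 at 2.12 and NOTUM at 98.3. LGR5, RNF43, CTNNB1, ZNRF3, TCF7 and SP5 lay between 11.8 (LGR5) and 50.1 (SP5). Of 7196 such genes at 48 h, the percentile was 0.875 for NKD1, 0.973 for LGR5, 1.97 for AXIN2, 7.87 for ZNRF3 and 96.2 for NOTUM. It was 13.6 for SP5, 14.6 for RNF43, 14.9 for TCF7 and 62.4 for CTNNB1. AXIN2 and NKD1 were thus near the low end and NOTUM near the high end at both times.

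**Figure D3:**
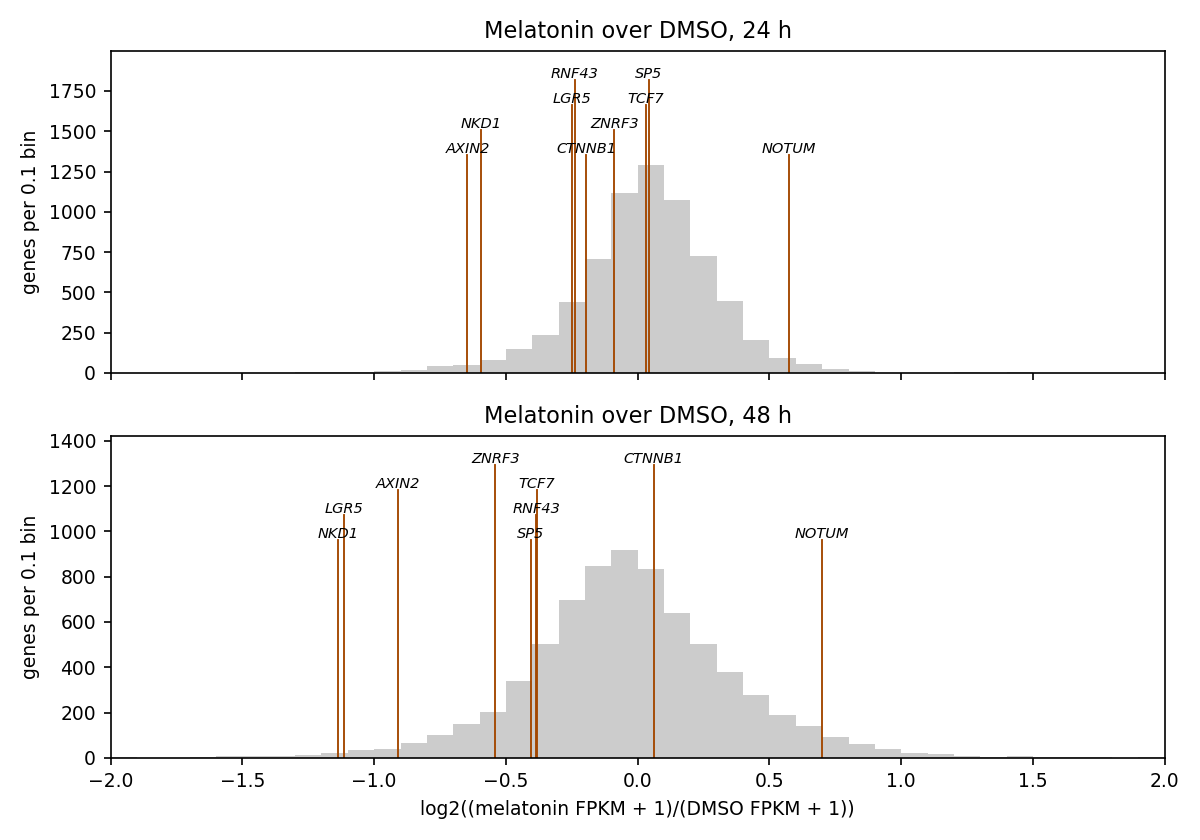
Number of genes with at least 500 reads in either library per 0.1 bin of the log2 difference between melatonin and DMSO, at 24 h (top) and 48 h (bottom), with lines at the 9 members. NKD1, LGR5 and AXIN2 stand in the lower tail at 48 h and NOTUM in the upper tail.

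The design also allowed the 48 h cultures to be compared with the 24 h cultures. These comparisons share their libraries with those above, so the values are given side by side and are not independent of them. In DMSO LGR5 rose past 2-fold, from 22.2 to 55.5 FPKM, a ratio of 2.502 (2.38 to 2.63), and in melatonin its ratio was 1.36 (1.28 to 1.44). NKD1 had a ratio of 1.64 (1.604 to 1.67) in DMSO and 1.12 (1.09 to 1.15) in melatonin. For AXIN2 the ratios were 1.58 (1.501 to 1.67) and 1.32 (1.23 to 1.42). These 3 genes were the ones furthest below DMSO in melatonin at 48 h, and their level in melatonin 48 h was between that of DMSO 24 h and DMSO 48 h for LGR5 only.

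NOTUM was higher at 48 h in both treatments, at 1.35 (1.33 to 1.38) in DMSO and 1.47 (1.45 to 1.499) in melatonin. The gene for beta-catenin itself went the other way. CTNNB1 was lower in both treatments at 48 h, at 0.608 (0.592 to 0.625) and 0.727 (0.708 to 0.748). ZNRF3 was at 1.28 (1.23 to 1.34) in DMSO and 0.929 (0.885 to 0.974) in melatonin, and SP5 at 1.07 (1.04 to 1.11) and 0.786 (0.758 to 0.815). Both lay above 1 in DMSO and below 1 in melatonin. TCF7 had ratios of 1.103 (0.994 to 1.22) and 0.757 (0.679 to 0.845), and RNF43 of 0.989 (0.947 to 1.03) and 0.889 (0.848 to 0.933). The lower side in melatonin was not firm for ZNRF3 and RNF43, whose log2 differences turned to 0.17 and 0.10 when rescaled to TPM, and for ZNRF3 to 0.02 with the sum of reads as the library size. CTNNB1, SP5 and TCF7 kept their lower side in TPM, but with smaller differences. For CTNNB1 the log2 difference went from -0.71 to -0.21 in DMSO and from -0.45 to -0.18 in melatonin. In melatonin it went from -0.34 to -0.07 for SP5 and from -0.30 to -0.11 for TCF7.

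**Figure D4:**
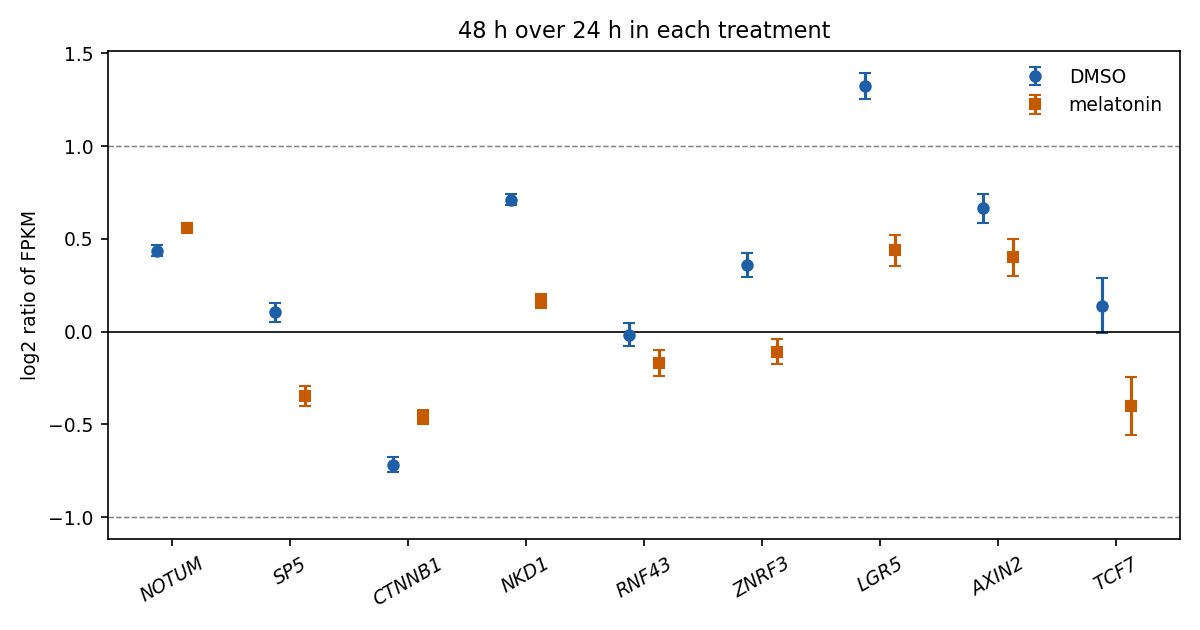
48 h over 24 h as the log2 ratio of FPKM for the 9 members above 1 FPKM, with circles for DMSO, squares for melatonin, bars for the exact 95% counting interval, and dashed lines at 2-fold. LGR5 in DMSO is the 1 point past 2-fold, and CTNNB1 lies below 0 in both treatments.

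In DMSO 1 of 9 members was at least 2-fold higher at 48 h and 0 at least 2-fold lower, where 3.50% and 4.24% of 13854 genes were. The interval was wholly above 1 for 6 members and wholly below for 1, against 32.5% and 32.1% of all genes tested. In melatonin 0 members passed 2-fold, against 2.45% of 13489 genes higher and 1.71% lower, and the interval was above 1 for 4 and below 1 for 5 members, against 22.4% and 32.8%. The median log2 difference of the members was 0.35 in DMSO and -0.10 in melatonin, and that of all genes tested 0.0041 and -0.04. Rescaling to TPM raised the median of all genes by 0.46 in DMSO and 0.25 in melatonin, so differences over time are stated relative to the FPKM scale. It raised the share of higher genes among those past 2-fold from 45.2% to 80.7% in DMSO and from 58.9% to 72.9% in melatonin, and from 32.7% to 45.8% for melatonin over DMSO at 24 h.

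The other genes of the pathway were read from 8 hand-written lists with 143 genes. For melatonin over DMSO on the FPKM + 1 scale, 1 of 82 tested was at least 2-fold higher and 0 lower at 24 h, against 1.42% and 2.93% of all genes tested. At 48 h 0 of 82 were higher and 5 lower, against 2.39% and 3.32%. The median log2 difference was 0.06 at 24 h and -0.15 at 48 h. Over time, 1 of 80 was at least 2-fold higher in DMSO, against 3.50% of all genes, and 2 of 83 at least 2-fold lower in melatonin, against 1.71%.

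Among Wnt ligands and their secretion genes, only 3 of 25 reached 1 FPKM in the 24 h libraries. WNT3, a canonical ligand, was at 2.25 FPKM in DMSO and 1.52 in melatonin at 24 h, and 3.07 and 2.36 at 48 h. PORCN, the enzyme that attaches the lipid to Wnt ligands, was at 2.44 FPKM in DMSO and 2.82 in melatonin at 24 h, and 1.38 and 2.09 at 48 h, and WNT11 at 0.476 FPKM in DMSO and 1.11 in melatonin at 24 h, and 0.323 and 0.563 at 48 h. None of them passed 2-fold on the FPKM + 1 scale in a comparison, although the ratio of FPKM for WNT11, with few reads (21, 54, 17 and 30), was 2.33 (1.38 to 4.06) at 24 h. The ligand genes were thus low beside their antagonist NOTUM.

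Of the receptors, all 10 tested had a log2 difference above 0 at 24 h and 9 of 11 at 48 h, also when rescaled to TPM, with 0 past 2-fold and medians of 0.22 and 0.23. Over all genes tested the difference was above 0 for 7266 of 13582 at 24 h and for 6553 of 13805 at 48 h. By the interval 6 of 10 receptors were higher at 24 h, against 28.2% of all genes tested. At 48 h 8 of 11 were higher, against 29.1%, and 2 lower, against 33.1%. The TPM scale itself put the median of all genes tested at 0.185 at 24 h. LRP5, a co-receptor, was the highest, at 87.2 FPKM in DMSO and 89.5 in melatonin at 24 h, and 75.6 and 96.2 at 48 h. FZD5 was at 36.2 FPKM in DMSO and 37.3 in melatonin at 24 h, and 38.8 and 45.7 at 48 h, and LGR4, the more widely expressed relative of LGR5, at 20.9 FPKM in DMSO and 21.8 in melatonin at 24 h, and 28.3 and 26.7 at 48 h. At 24 h the counting intervals of LRP5, FZD5 and LGR4 included no difference. The ratio of melatonin to DMSO at 48 h was 0.945 (0.903 to 0.988) for LGR4 and 0.452 (0.433 to 0.472) for LGR5.

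Of the secreted and membrane inhibitors, 1 of 5 tested was at least 2-fold higher at 24 h, against 1.42% of all genes tested. At 48 h 1 of 5 was at least 2-fold lower, against 3.32%. DKK1, which blocks the LRP co-receptors, was at 36.7 FPKM in DMSO and 19.7 in melatonin at 24 h, and 18.7 and 6.21 at 48 h. It fell past 2-fold at 48 h, to 0.332 (0.291 to 0.379) of DMSO, and its ratio at 24 h was 0.537 (0.494 to 0.584). DKK4, a relative with few reads (15, 54, 3 and 2), rose past 2-fold at 24 h with a ratio of 3.26 (1.81 to 6.22), and was at or under the floor of 3 reads at 48 h. Both DKK1 and DKK4 were at least 2-fold lower at 48 h than at 24 h in melatonin. KREMEN1, a receptor for DKK proteins, was at 10.4 FPKM in DMSO and 13.1 in melatonin at 24 h, and 13.6 and 16.2 at 48 h, and KREMEN2 at 3.23 FPKM in DMSO and 3.602 in melatonin at 24 h, and 2.56 and 2.31 at 48 h.

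All 19 genes of the destruction complex and its control passed the minimum, and 0 were past 2-fold. At 24 h 13 had a log2 difference above 0 and 6 below, and at 48 h 4 were above and 15 below, where 6316 of 13582 and 7252 of 13805 genes tested were below 0. The last counts became 7 and 12 when mitochondrial reads were left out of the library size. DVL1, which carries the signal from Frizzled, was at 38.96 FPKM in DMSO and 43.8 in melatonin at 24 h, and 53.3 and 39.4 at 48 h. DVL3 was at 21.1 FPKM in DMSO and 22. in melatonin at 24 h, and 33.2 and 25.7 at 48 h, and USP7, a deubiquitinase, at 44.4 FPKM in DMSO and 41.5 in melatonin at 24 h, and 40.8 and 33.5 at 48 h.

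In the nuclear complex 0 of 14 genes tested were past 2-fold at 48 h, with 4 above and 10 below 0, beside 7252 of 13805 genes tested below 0, and a median of -0.30. HDAC1, a histone deacetylase, was at 32.2 FPKM in DMSO and 26.9 in melatonin at 24 h, and 43.04 and 35.5 at 48 h. TLE1, a corepressor, was at 21.6 FPKM in DMSO and 19.5 in melatonin at 24 h, and 23.7 and 18.6 at 48 h, and CHD8, a chromatin remodeller, at 22.8 FPKM in DMSO and 24.2 in melatonin at 24 h, and 18.6 and 19.5 at 48 h. The 5 listed genes of the adherens junction, where beta-catenin also acts, held no gene past 2-fold. CDH2 (N-cadherin) was at 24.5 FPKM in DMSO and 29.6 in melatonin at 24 h, and 42.2 and 37.8 at 48 h, CTNND1 at 37.2 FPKM in DMSO and 36.7 in melatonin at 24 h, and 32.2 and 33.4 at 48 h and CTNNA1 (alpha-catenin) at 22.4 FPKM in DMSO and 20.4 in melatonin at 24 h, and 25.4 and 18.9 at 48 h.

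The other general targets of Wnt showed 0 of 15 past 2-fold at 24 h, against 1.42% of all genes tested higher and 2.93% lower. At 48 h 2 of 14 were at least 2-fold lower, against 3.32%. TNFRSF19, a receptor of the TNF family, was at 35.1 FPKM in DMSO and 23.9 in melatonin at 24 h, and 50.7 and 20. at 48 h, and fell at 48 h to 0.394 (0.375 to 0.414) of DMSO. FOSL1, an AP-1 subunit, was at 5.6 FPKM in DMSO and 4.81 in melatonin at 24 h, and 8.94 and 3.89 at 48 h, and fell at 48 h to 0.435 (0.3596 to 0.525). MYC, CCND1 and SOX9 differed less at 48 h. MYC was at 60.8 FPKM in DMSO and 70.2 in melatonin at 24 h, and 90.97 and 63.6 at 48 h, CCND1 (cyclin D1) at 73.3 FPKM in DMSO and 69.8 in melatonin at 24 h, and 62.5 and 55.1 at 48 h, and the transcription factor SOX9 at 77.1 FPKM in DMSO and 80.4 in melatonin at 24 h, and 80.1 and 84.1 at 48 h.

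The targets of beta-catenin around the central vein of the liver showed 0 of 12 past 2-fold on the FPKM + 1 scale at 24 h. Of all genes tested at that time, 1.42% were at least 2-fold higher and 2.93% lower. At 48 h 2 of 12, RHBG and SLC1A2, were at least 2-fold lower, against 3.32% of all genes tested. RHBG, an ammonia transporter, was at 31.5 FPKM in DMSO and 18.1 in melatonin at 24 h, and 36.4 and 16.1 at 48 h, with ratios of 0.575 (0.535 to 0.618) and 0.442 (0.413 to 0.473). SLC1A2, a glutamate transporter, was at 3.96 FPKM in DMSO and 1.86 in melatonin at 24 h, and 10.1 and 3.17 at 48 h, with ratios of 0.471 (0.42 to 0.527) and 0.314 (0.2902 to 0.339). SLC1A2 thus passed 2-fold as a ratio of FPKM at 24 h, but its log2 difference on FPKM + 1 was -0.79. It also rose past 2-fold over time in DMSO, with a ratio of 2.55 (2.37 to 2.76), as LGR5 did. GLUL (glutamine synthetase), the best known gene of this program, was at 47.6 FPKM in DMSO and 50.8 in melatonin at 24 h, and 61.2 and 53.01 at 48 h, with a ratio at 48 h of 0.867 (0.844 to 0.8895). CYP27A1, an enzyme of bile acid synthesis, was at 87.2 FPKM in DMSO and 90.4 in melatonin at 24 h, and 69.8 and 51.4 at 48 h.

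**Figure D5:**
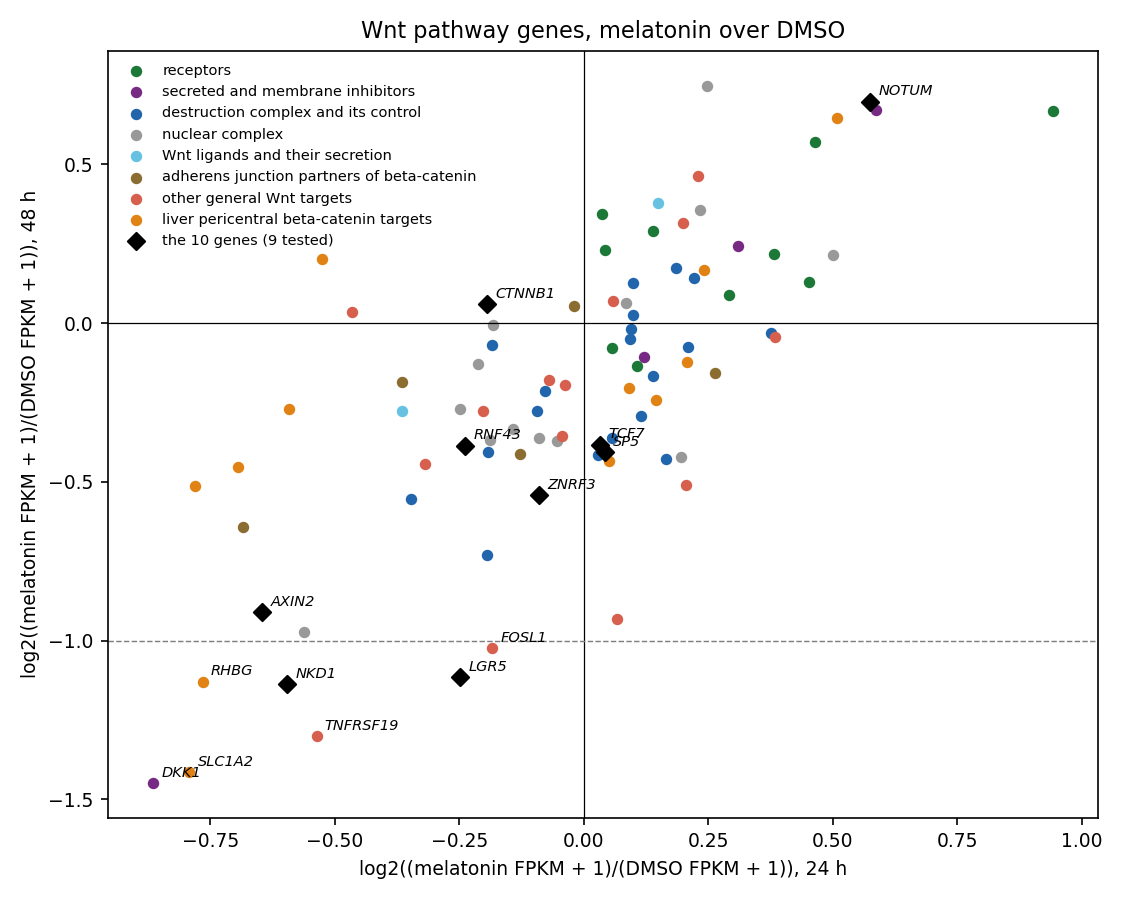
Log2 difference between melatonin and DMSO at 24 h (horizontal) and 48 h (vertical) for genes of the Wnt lists above 1 FPKM in both comparisons, with black diamonds for the 9 members, coloured circles for the other lists and a dashed line at 2-fold lower. NKD1 and LGR5 lie below the dashed line with DKK1, TNFRSF19, FOSL1, RHBG and SLC1A2, and NOTUM lies at the upper right.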

How the data were processed

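HepG2 cells were treated with 1 mM melatonin or DMSO for 24 h or 48 h, and 1 mRNA-seq library was made per condition. The authors deposited FPKM per Ensembl gene (hg38) and the length of each gene in bp. Their methods name MapSplice 2.0.1.6 and Cufflinks, while the submitters' processing notes name Bowtie2 2.0.6, TopHat2 2.0.9, Cufflinks 2.1.1 and Cuffdiff 2.1.1. Which of them made the files is not given in the sources used here. Multiplying FPKM by length gave, within a library, multiples of a common unit for 100% of values above 0 (tolerance 0.01), and these multiples were taken as reads per gene. The sum of these reads differs from the library size implied by the FPKM, which ranged from 18357838 to 22205042. FPKM stayed the main values. Since there is no replicate, no count model was fitted.

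Differences were log2((FPKM + 1)/(FPKM + 1)). A gene was tested where 1 of the libraries compared reached 1 FPKM, and a 2-fold difference on that scale was counted. Ratios are of FPKM without the added 1, with exact conditional 95% (Clopper-Pearson) intervals from the reads. Intervals and the floor of 3 reads (0.135 to 0.163 FPKM for a gene of 1 kb) cover counting error only, and PCR duplicates cannot be seen. The calculation was run on simulated reads with known fold changes and Poisson counting error only, which hold no variation between libraries of a condition. Values were computed in Python 3.11.15 with scipy 1.17.1. The 10 genes and all lists were chosen with earlier results of these data known. Of each other list, all genes past 2-fold and the 3 with the highest mean level were named. The gene level values do not resolve the CTNNB1 deletion.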

Additional observations from a re-analysis of the deposited data

Results flagged for a closer look

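In 5 of the named genes the ratio of melatonin to DMSO lay on opposite sides of 1 at 24 h and 48 h, with both counting intervals excluding 1. CTNNB1 had a ratio of 0.873 at 24 h and 1.04 at 48 h. Its log2 difference kept these signs under 4 other scalings and a pseudocount of 0.1. It was close to no difference when rescaled to TPM, at -0.022 at 24 h and 0.0067 at 48 h. DVL1 had 1.12 and 0.739, and CDH2 had 1.21 and 0.894. MYC had 1.16 and 0.699, and GLUL had 1.07 and 0.867. With 1 library per condition the difference between the times was not tested in any of them.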

How the results depend on the processing

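With 1 library per condition, no replicate could be left out. No paired analysis was possible because the groups compared share only 1 replicate number. A fit of treatment with time as a block, which would leave 1 residual degree of freedom, was not run. The counts of members past 2-fold moved from 0, 2 and 1 to 2 at 24 h, 4 at 48 h and 4 over time in DMSO at a 1.5-fold threshold, and to 3 over time in DMSO on the TPM scale. Counts of the other Wnt genes were 7, 12 and 4 (melatonin at 24 h, at 48 h and over time in melatonin) with 0.1 added in place of 1. With a minimum of 5 FPKM they were 0 at 24 h and 1 over time in melatonin, and at 1.5-fold they were 10, 14, 16 and 8 in the 4 comparisons. On the TPM scale they were 2, 9, 17 and 4, and with the sum of reads 2 over time in DMSO. Counts over all genes in the 4 comparisons were 591, 789, 1072 and 560. They became 1208, 1672, 2079 and 1160 with 0.1 added, 118, 324, 545 and 157 at 5 FPKM, 1569, 2576, 3296 and 1728 at 1.5-fold, and 1561, 2511, 3651 and 2085 in TPM. They were 66, 253, 467 and 97 over protein-coding genes, and 98, 351, 567 and 138 with at least 50 reads, a setting added after the data were seen. With the sum of reads the share of higher genes over time in DMSO was 61.8%. The sign turned for ZNRF3 at 24 h in TPM (0.080), for ZNRF3 over time in melatonin in TPM (0.17) and with the sum of reads (0.025), and for RNF43 over time in melatonin in TPM (0.10). RNF43 over time in DMSO, whose interval includes no difference, went from -0.015 to 0.48 in TPM and 0.14 with the sum of reads. In the other named genes 17 values from 12 genes with intervals excluding 1 changed sign under another scaling. The cause of these shifts was not tested.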
